A study of Homo sapiens with 4 samples.

Results

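The genes described here are those of the NRF2 antioxidant and glutathione system. They were taken as the probe sets whose annotation names 1 gene out of a list of 45 symbols, covering the NRF2 pathway, glutathione synthesis and conjugation, thioredoxin, peroxide removal and NADPH supply. Of these 45 genes, 43 had a probe set, with 87 probe sets in all, among 19583 genes and 51965 probe sets on the arrays. PRDX5 and FTH1 were not analysed here. RNA was measured in LNCaP, an androgen-responsive human prostate cancer cell line whose name the labels spell LNCap. There were 2 arrays labelled LNCap ERG, from cells given a lentivirus for ERG, and 2 labelled LNCap Vector, from cells given the control lentivirus. ERG is an ETS transcription factor that many prostate tumors overexpress through a gene fusion. In the study both viruses also carried red fluorescent protein, and all cells were kept in ordinary growth medium overnight before RNA extraction, with no oxidant or drug. Whether the 2 arrays of each group stand for separate cultures or transductions is not stated, so the p-values rest on array-to-array spread that could be purely technical.

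NRF2, the product of NFE2L2, is a transcription factor that is held back by KEAP1, an adaptor that hands it to a ubiquitin ligase for breakdown. When oxidants or electrophiles modify KEAP1, NRF2 escapes, pairs with a small MAF protein and binds antioxidant response elements near its target genes. These targets make glutathione, attach it to toxic compounds, reduce thioredoxin and peroxides, and store iron. In prostate cancer the glutathione transferase GSTP1 is known for being shut off by DNA methylation of its promoter, LNCaP included.

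The core of the antioxidant response element was searched as TGACNNNGC on both strands in the 250 bases before each gene start that RefSeq lists (GRCh38.p14). Of the 43 genes, 33 were in that table, with 45 start windows, and 9 genes held a match in at least 1 window. By windows, 10 of 45 (22.2%) held a match, beside 10.9% of 35116 windows over all genes. The 6 stretches below are shown because their genes include core NRF2 targets and 2 of the transferases described below as higher in both LNCap ERG arrays. They are written on the strand of the gene, 5′ to 3′, with the match in capitals.
GCLM: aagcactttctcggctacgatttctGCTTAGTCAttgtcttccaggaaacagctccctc
GPX2: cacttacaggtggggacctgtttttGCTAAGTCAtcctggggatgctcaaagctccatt
TXNRD1: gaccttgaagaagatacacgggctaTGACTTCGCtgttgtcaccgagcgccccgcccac
GSTP1: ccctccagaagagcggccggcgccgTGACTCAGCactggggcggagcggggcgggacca
GSTM1: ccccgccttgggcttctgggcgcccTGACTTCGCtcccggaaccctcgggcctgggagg
GSTA4: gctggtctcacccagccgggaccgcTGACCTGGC
Those of GCLM (chr1:93909431-93909489), GPX2 (chr14:64942834-64942892) and GSTA4 (chr6:52995285-52995318) come from genes on the minus strand. Those of TXNRD1 (chr12:104215655-104215713), GSTP1 (chr11:67583721-67583779) and GSTM1 (chr1:109687627-109687685) come from genes on the plus strand. GCLM and GPX2 carry the match on the opposite strand, so it appears as its reverse complement. The other genes with a match were KEAP1, GSTO1 and PGD. An ETS factor site, searched as CCGGAAGT on both strands of the same windows, was found in 0 of the 45 windows and in 3.42% of windows over all genes. Such matches describe letters in a window and show no binding.

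ERG itself did not check the labels: its 4 probe sets had log2 fold changes of -0.24 to 0.12, with group means at log2 intensities of 2.66 to 3.45. Of 12 measured markers of luminal prostate cells, 10 lay above a background level of 6.22 in both groups, set at the 95th percentile of the array values of 41 genes that belong to other organs. None of 11 measured leukocyte, endothelial and prostate basal markers did, and of 5 fibroblast markers 1 did, COL1A1 (8.74 in LNCap ERG, 8.36 in LNCap Vector). The summed intensity of the 5 fibroblast markers was 450 to 478 in the LNCap ERG arrays and 357 to 373 in the LNCap Vector arrays. That of the 4 endothelial markers was 94 to 101 in LNCap ERG and 78 to 86 in LNCap Vector, and that of the 12 luminal markers 29071 to 29284 in LNCap ERG and 30072 to 30291 in LNCap Vector. By single fibroblast markers, COL1A1 and DCN had log2 fold changes of 0.38 and 0.26, and COL1A2, COL3A1 and LUM had -0.21, -0.12 and -0.07. By endothelial markers, PECAM1, VWF and CDH5 had 0.32, 0.30 and 0.02, and KDR had -0.025. All of these but COL1A1 lay under the background level in both groups. The part of any marker in the results here was not tested. Over all genes the 2 LNCap ERG arrays differed by an SD of 0.185 and the 2 LNCap Vector arrays by 0.189 on the log2 scale, and arrays of different groups by 0.193 to 0.238. Below, a value is a log2 probe set intensity unless it is called a log2 fold change, which is LNCap ERG minus LNCap Vector, and each gene is read from its brightest probe set.

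As a group the antioxidant and glutathione genes differed little between the cells. Their median log2 fold change was 0.001, beside 0.008 over all genes, with 22 above 0 and 21 below (52.8% and 47.2% over all genes), and all 43 lay between -0.25 and 0.43. At an adjusted p under 0.05, limma's moderated test called 0 higher and 0 lower, where over all genes 0.00511% were called in each direction. Before adjustment, 5 were higher and 1 was lower at p under 0.05 by the same test, or 11.6% and 2.33% of the 43, beside 5.61% higher and 4.11% lower over all genes. By the methods' t-test 3 were higher and 3 lower at that threshold, or 6.98% each, beside 4.38% and 3.76% over all genes, and 0 passed after Benjamini-Hochberg adjustment. The arrays of the groups did not overlap for 20 of the 43 genes, 11 higher and 9 lower. That is 46.5%, against 40.9% of all genes (21.7% higher and 19.1% lower). Among genes above background in both groups, the share was 48.6% of 35 antioxidant and glutathione genes, beside 48% of 8407 genes. The 95% interval of the fold change stayed within 1.5-fold in both directions for 42 genes, all but PRDX2. For 21 of the 43 the log2 fold change was smaller than 0.05 in size. With 1 array left out, the counts at an unadjusted p under 0.05 were 2 higher and 0 lower without the first LNCap ERG array, where 3.28% and 3.18% of all genes passed. They were 4 and 1 without the second (5.91% and 4.1% of all genes), 3 and 0 without the first LNCap Vector array (5.42% and 4.42%) and 3 and 0 without the second (4.35% and 2.73%).

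**Figure D1:**
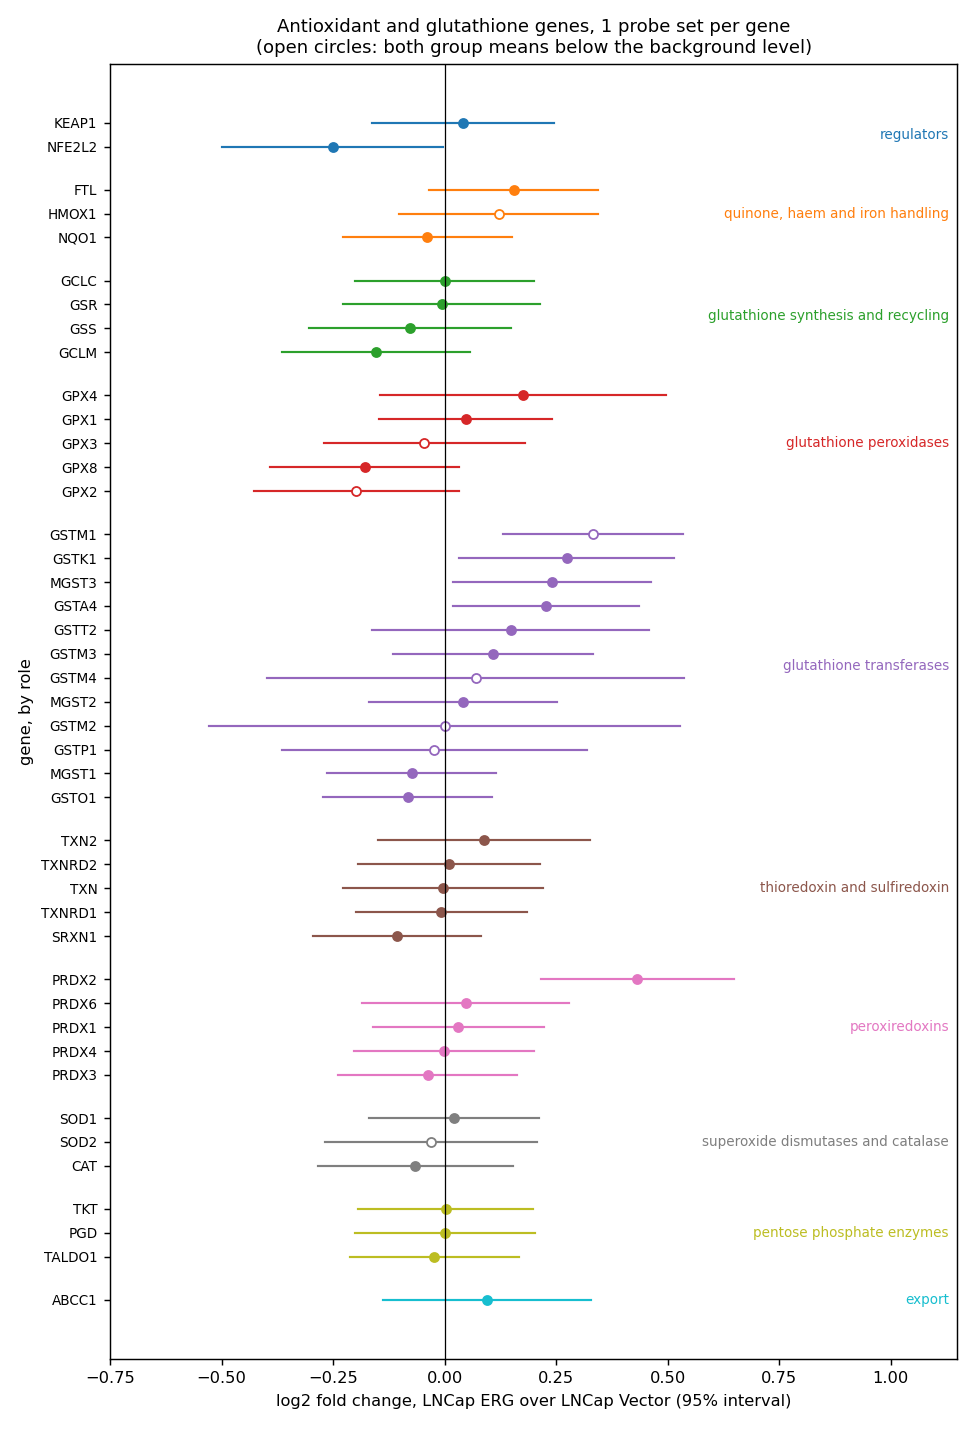
Log2 fold change, LNCap ERG over LNCap Vector (x axis), of the 43 antioxidant and glutathione genes (y axis, grouped by role), with 95% intervals from limma as lines. Open circles are genes with both group means below the background level of 6.22; most intervals cross 0, and PRDX2 lies farthest right at 0.43.

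Of the regulators, NFE2L2 was lower in both LNCap ERG arrays and KEAP1 differed little. NFE2L2 read 9.18 and 9.38 in the LNCap ERG arrays and 9.52 and 9.54 in the LNCap Vector arrays. The groups did not overlap, and the LNCap ERG arrays were farther apart than the others. The log2 fold change was -0.25 (standard error 0.10, 95% interval -0.50 to -0.003, unadjusted p = 0.048 and adjusted p = 0.51 from limma). By limma it was the 1 gene of the 43 that was lower at an unadjusted p under 0.05. By the methods' t-test NFE2L2 was not under that threshold, and SRXN1, GSTO1 and MGST1 were lower under it. Among the alternatives listed below, limma gave 0 lower with quantile normalization again, with plain probe sets and with the replicate block. All 4 NFE2L2 probe sets had a negative log2 fold change, from -0.34 to -0.02. Those at -0.34 and -0.02 lay under the background level in both groups. Another, at -0.19, averaged 6.05 in LNCap ERG and 6.24 in LNCap Vector. The groups overlapped at those with -0.19 and -0.02. The brightest probe set gave -0.15 without the first LNCap ERG array and -0.35 without the second. KEAP1 read 8.96 and 9.06 in LNCap ERG and 8.97 and 8.98 in LNCap Vector, overlapping groups with a log2 fold change of 0.04 (95% interval -0.16 to 0.25).

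The textbook targets of NRF2 did not move with 1 sign. NQO1, which reduces quinones, read 9.30 and 9.30 in LNCap ERG and 9.35 and 9.33 in LNCap Vector, a log2 fold change of -0.04 (95% interval -0.23 to 0.15, adjusted p = 0.91 from limma). Its groups did not overlap, at a distance of less than 0.1 on the log2 scale. HMOX1, the inducible haem oxygenase, read 5.86 and 5.98 in LNCap ERG and 5.84 and 5.75 in LNCap Vector (log2 fold change 0.12, adjusted p = 0.70), with both means under the background level. FTL, the light chain of the iron store ferritin, read 12.52 and 12.53 in LNCap ERG and 12.39 and 12.36 in LNCap Vector. Its log2 fold change was 0.15 (95% interval -0.04 to 0.34, adjusted p = 0.57), and its second probe set had 0.23. Both FTL probe sets carry the array maker's mark for probes shared with other transcripts, and ferritin has many processed pseudogenes.

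Glutathione is made by glutamate-cysteine ligase, with a catalytic subunit from GCLC and a modifier subunit from GCLM, and then by the synthetase GSS; GSR reduces it again after use. None of these 4 genes was higher in LNCap ERG at its brightest probe set. GCLM read 8.35 and 8.27 in LNCap ERG and 8.42 and 8.51 in LNCap Vector, without overlap (log2 fold change -0.15 with a standard error of 0.08, and limma's adjusted p = 0.61). Its other 2 probe sets had -0.23 and -0.36, also without overlap, so GCLM was the 1 gene with several probe sets whose groups were apart and lower at all of them. GCLC read 7.40 and 7.34 in LNCap ERG and 7.34 and 7.41 in LNCap Vector, a log2 fold change of 0.00 (95% interval -0.20 to 0.20), while its other probe sets had -0.23 and 0.06. GSR read 8.61 and 8.73 in LNCap ERG and 8.72 and 8.64 in LNCap Vector (log2 fold change -0.006, 95% interval -0.23 to 0.21). GSS had -0.08 at its brighter probe set, with overlapping groups. Its other probe set, nearly as bright (9.38 in LNCap ERG, 9.25 in LNCap Vector), had 0.13 without overlap.

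The glutathione peroxidases split in sign. GPX4, which reduces lipid peroxides in membranes, averaged 11.34 ± 0.05 in LNCap ERG and 11.16 ± 0.23 in LNCap Vector (SD, n = 2 each), overlapping groups with a log2 fold change of 0.18 (95% interval -0.14 to 0.50). GPX1, the main cytosolic enzyme, had 0.05. GPX8, a peroxidase of the endoplasmic reticulum, read 9.15 and 9.02 in LNCap ERG and 9.25 and 9.28 in LNCap Vector, without overlap (log2 fold change -0.18, adjusted p = 0.56 from limma). GPX2 and GPX3, a gut and a secreted enzyme, had -0.20 and -0.05 and were dim in both groups; the other probe set of GPX3 had 0.10.

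Glutathione transferases, which join glutathione to electrophiles, gave 4 of the 5 genes that were higher at an unadjusted p under 0.05 by limma. That is 33.3% of the transferases beside 5.61% of all genes. By the methods' t-test, only GSTM1 of these 4 was under that threshold, and the transferases GSTO1 and MGST1 were lower under it. Of the 12 transferases measured, 8 had a log2 fold change above 0 and 4 below, with a median of 0.089 beside 0.008 over all genes. The groups were apart for 7, 5 higher and 2 lower, which is 58.3%, beside 40.9% of all genes and 48% of the 8407 genes above background in both groups. GSTK1, the mitochondrial and peroxisomal enzyme, read 8.95 and 8.78 in LNCap ERG and 8.55 and 8.63 in LNCap Vector (log2 fold change 0.27, standard error 0.10, unadjusted p = 0.033 and adjusted p = 0.47 from limma). GSTA4, which clears the lipid peroxidation product 4-hydroxynonenal, read 9.93 and 9.95 in LNCap ERG and 9.66 and 9.77 in LNCap Vector (log2 fold change 0.23, standard error 0.08, unadjusted p = 0.037 and adjusted p = 0.48). MGST3, a microsomal enzyme, read 11.31 and 11.19 in LNCap ERG and 10.96 and 11.05 in LNCap Vector (log2 fold change 0.24, standard error 0.09, unadjusted p = 0.038 and adjusted p = 0.48). In these 3 genes each LNCap ERG array was above each LNCap Vector array. The second probe sets of GSTK1 and GSTA4 had log2 fold changes of 0.36 and 0.23, again without overlap, and MGST3 has 1 probe set. That of GSTK1 lay under the background level (5.62 in LNCap ERG, 5.26 in LNCap Vector) and carries the same mark as those of FTL.

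GSTM1, of the mu class, read 5.02 and 5.10 in LNCap ERG and 4.71 and 4.74 in LNCap Vector (log2 fold change 0.33, standard error 0.08, unadjusted p = 0.0079 and adjusted p = 0.37 from limma), and its second probe set had 0.32. Both lie under the background level and carry the same mark as FTL and may match the near-identical mu class genes, so the source and size of this difference are uncertain. GSTM3, a mu class enzyme known from brain and testis, read 11.47 and 11.42 in LNCap ERG and 11.41 and 11.27 in LNCap Vector (log2 fold change 0.11, adjusted p = 0.73). GSTM2 and GSTM4, dim and read by probes of the same kind as GSTM1, had 0.00 and 0.07, with overlapping groups. GSTP1 read 4.35 and 4.10 in LNCap ERG and 4.12 and 4.38 in LNCap Vector, a log2 fold change of -0.02 (95% interval -0.36 to 0.32). Its groups overlapped and all 4 arrays lay well under the background level. GSTT2, which shares most of its sequence with GSTT2B, had 0.15 with overlapping groups.

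The remaining transferases had log2 fold changes close to 0. GSTO1, the omega class enzyme, read 10.73 and 10.72 in LNCap ERG and 10.80 and 10.81 in LNCap Vector (log2 fold change -0.08). MGST1, another microsomal enzyme, had -0.07 at its brightest probe set and -0.16 to -0.07 over all 5. MGST2 had 0.04.

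**Figure D2:**
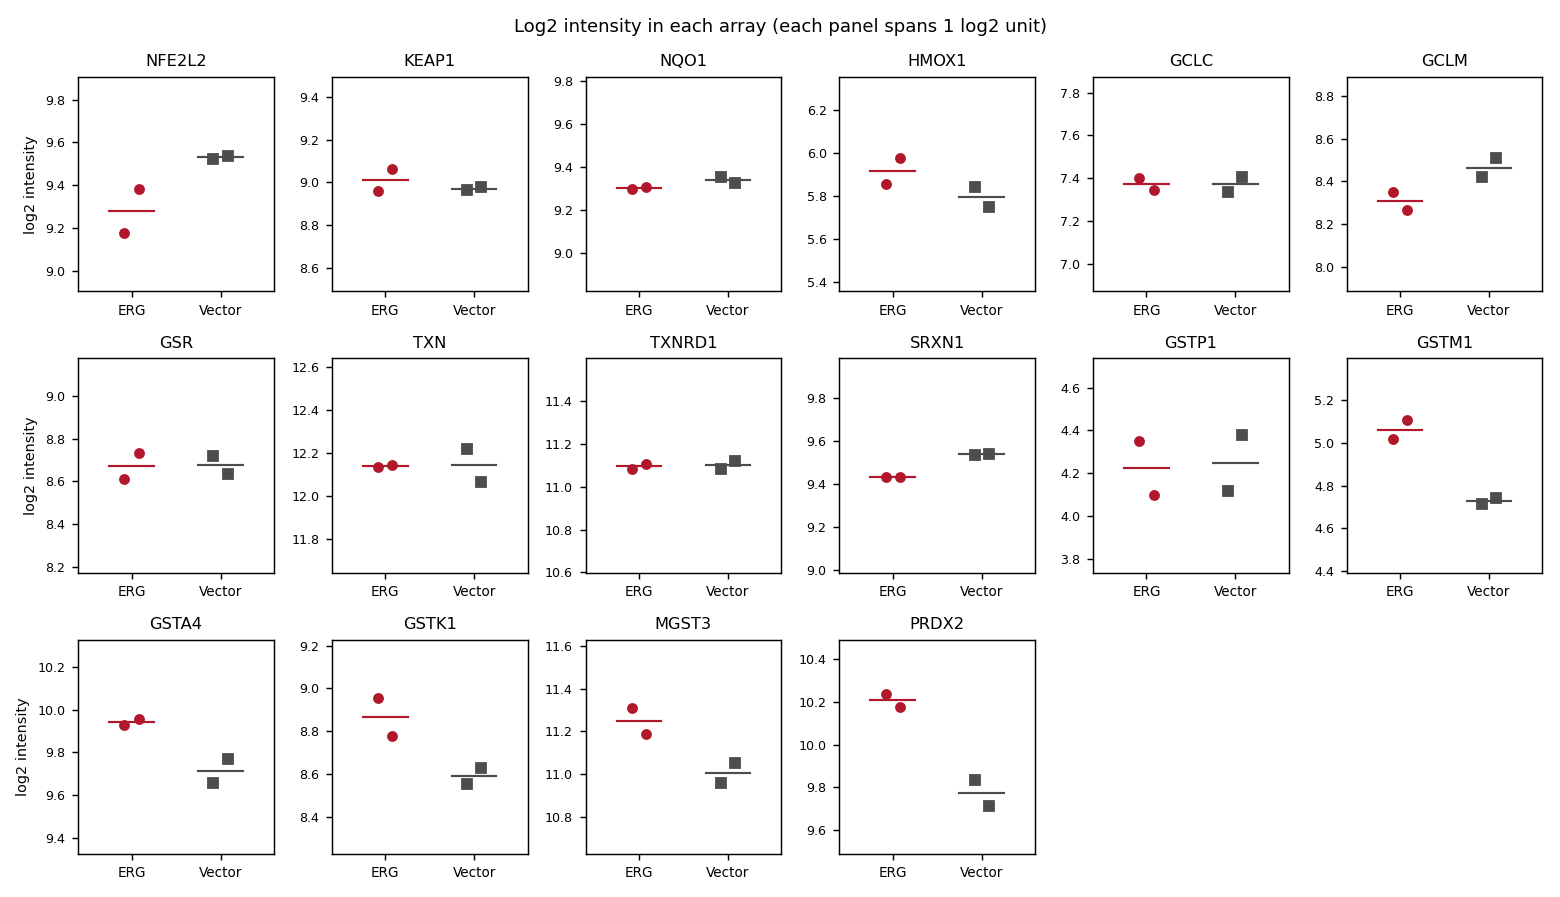
Log2 probe set intensity (y axis, each panel spanning 1 log2 unit) in each array. Red circles on the left are LNCap ERG arrays, and grey squares on the right are LNCap Vector arrays. Panels show the NRF2 core genes and the genes at an unadjusted p under 0.05 by limma, with lines at the group means. The groups are apart for PRDX2, GSTM1, GSTA4, GSTK1, MGST3 and HMOX1, all higher in LNCap ERG, and for NFE2L2, GCLM, SRXN1 and NQO1, all lower.

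Thioredoxin is the second thiol system of the cell, fed by the reductases TXNRD1 in the cytosol and TXNRD2 in mitochondria. TXN read 12.13 and 12.15 in LNCap ERG and 12.22 and 12.07 in LNCap Vector (log2 fold change -0.003, 95% interval -0.23 to 0.22). TXNRD1, also an NRF2 target, read 11.08 and 11.11 in LNCap ERG and 11.08 and 11.12 in LNCap Vector (log2 fold change -0.008, 95% interval -0.20 to 0.18). Both pairs of groups overlapped, as did those of TXN2 (log2 fold change 0.09) and TXNRD2 (0.01). The other probe sets of TXN, TXN2 and TXNRD2 had 0.09, -0.10 and -0.03, opposite in sign to the brightest. That of TXN2 was nearly as bright (9.15 in LNCap ERG, 9.24 in LNCap Vector), and its groups did not overlap. SRXN1, sulfiredoxin, which restores overoxidised peroxiredoxins, read 9.43 and 9.44 in LNCap ERG and 9.54 and 9.54 in LNCap Vector. These groups were apart, with a log2 fold change of -0.11 (95% interval -0.29 to 0.08, adjusted p = 0.69 from limma).

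PRDX2, a cytosolic peroxiredoxin that removes hydrogen peroxide with thioredoxin, had the largest difference of the 43 genes. It read 10.23 and 10.18 in LNCap ERG and 9.84 and 9.71 in LNCap Vector. Both LNCap ERG arrays were above both LNCap Vector arrays by more than the arrays of a group differed. It was 1.35-fold higher (log2 fold change 0.43, standard error 0.08, 95% interval 0.22 to 0.65, unadjusted p = 0.0034 and adjusted p = 0.32 from limma). Its other 2 probe sets, both less bright, had log2 fold changes of 0.20 and 0.15, also without overlap. The first of these lay under the background level, and the second carries the mark for probes shared with other transcripts. PRDX2 passed the adjusted threshold under 1 alternative, trended and robust moderation of the variance (adjusted p = 0.029), and its adjusted p ran from 0.029 to 0.74 over the alternatives. Without single arrays the log2 fold change was 0.37 to 0.49, and as the mean of the 3 probe sets it was 0.26. The other peroxiredoxins lay close to 0, since PRDX1, PRDX3, PRDX4 and PRDX6 had log2 fold changes of -0.04 to 0.05.

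Superoxide dismutases turn superoxide into hydrogen peroxide, which catalase breaks down. SOD1, the cytosolic form, had a log2 fold change of 0.02, SOD2, the mitochondrial form, -0.03, and CAT -0.07. The other 2 probe sets of CAT had -0.05 and 0.23. SOD2 lay under the background level at its brightest probe set (5.68 in LNCap ERG, 5.71 in LNCap Vector), and all 5 of its probe sets had a negative log2 fold change of at most 0.141 in size. The pentose phosphate enzymes PGD, TALDO1 and TKT had 0.001, -0.02 and 0.003, the narrowest range of any role with over 1 gene. The other probe sets of TKT had -0.02 and -0.001. ABCC1, which exports glutathione conjugates, had 0.10 (95% interval -0.14 to 0.33).

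Probe sets gave a further view, though those of a gene share the same arrays and are not replicates. Of the 29 genes with several, 10 had only positive log2 fold changes, 11 only negative and 8 neither. Over all 10098 genes with several, 19.2% had only positive and 21.5% only negative ones. At all probe sets the LNCap ERG arrays lay above the LNCap Vector arrays for 6 genes, PRDX2, GSTM1, GSTM3, GSTA4, GSTK1 and FTL, and below them for GCLM. Over all genes with several probe sets 3.12% were above and 3.9% below in this way. Number and brightness of probe sets were not matched in these comparisons, and fewer probe sets are more easily all apart. Of the 6 genes, PRDX2 had 3 probe sets and the others 2 each. Both GSTM1 probe sets lay under the background level, as did a dimmer one each of GSTM3, GSTK1 and PRDX2. GSTM1, FTL, GSTK1 and PRDX2 also had probe sets with the mark for probes shared with other transcripts. Among the 87 probe sets, adjusted over all 39464 that name 1 gene, 0 passed. At an unadjusted p under 0.05 there were 9 higher and 2 lower (10.3% and 2.3%, beside 4.3% and 4.41% of all probe sets).

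**Figure D3:**
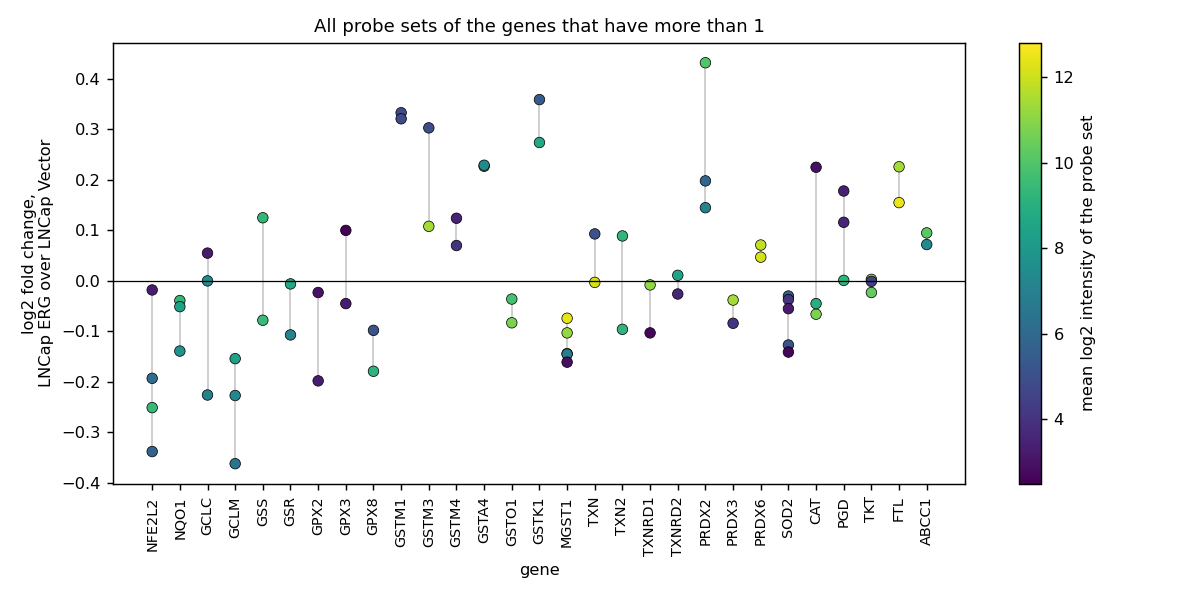
Log2 fold change, LNCap ERG over LNCap Vector (y axis), of every probe set of the 29 genes that have more than 1 (x axis), coloured by the mean log2 intensity of the probe set. The 3 PRDX2 probe sets lie at 0.15 to 0.43, and those of GCLM at -0.36 to -0.15.

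The 9 genes with an antioxidant response element match in a start window had a median log2 fold change of -0.008, from -0.20 (GPX2) to 0.33 (GSTM1). Of them 2 were higher without overlap, GSTM1 and GSTA4, and 3 were lower. Among the 24 genes in the promoter table without a match, 6 were higher and 6 lower without overlap. Over all genes 21.7% were higher and 19.1% lower in this way.

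A further list of 98 genes of the same pathways was described, 93 of them measured. Limma called 0 higher and 0 lower at an adjusted p under 0.05, and the methods' t-test 0 after adjustment. At an unadjusted p under 0.05 limma gave 7 higher and 5 lower (7.53% and 5.38%, beside 5.61% and 4.11% over all genes), and the median log2 fold change was 0.009. SLC7A11, the cystine transporter that supplies cysteine for glutathione, read 8.54 and 8.85 in LNCap ERG and 9.17 and 9.27 in LNCap Vector. It was 1.44-fold lower in LNCap ERG (log2 fold change -0.53, standard error 0.12, unadjusted p = 0.0074 and adjusted p = 0.37 from limma). Its other 2 probe sets had -0.32 and -0.63, both without overlap. That at -0.63 lay under the background level (4.75 in LNCap ERG, 5.38 in LNCap Vector). With single arrays left out, the brightest probe set gave -0.68 to -0.37.

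Others of that list with both groups apart lay on either side. GLRX2, a mitochondrial glutaredoxin, read 10.22 and 10.28 in LNCap ERG and 10.61 and 10.54 in LNCap Vector (log2 fold change -0.32, adjusted p = 0.37 from limma). SECISBP2, which lets ribosomes insert selenocysteine, had -0.21 (adjusted p = 0.50 from limma). Its other probe set had -0.08 with overlapping groups (6.68 in LNCap ERG, 6.76 in LNCap Vector). IDH1, a cytosolic source of NADPH, had -0.19 (adjusted p = 0.54 from limma), and its dimmer probe sets had -0.18, -0.18 and 0.04. SLC25A40, a mitochondrial carrier linked to glutathione import, had -0.43 (adjusted p = 0.53 from limma) and 0.02 at its other probe set. Without the first LNCap ERG array SLC25A40 had -0.19, and without the second -0.66. EPHX1, an epoxide hydrolase and NRF2 target, read 8.55 and 8.20 in LNCap ERG and 8.05 and 7.84 in LNCap Vector (log2 fold change 0.43, adjusted p = 0.46), with 0.26 without the first LNCap ERG array and 0.60 without the second. SESN3, a sestrin, read 10.57 and 10.73 in LNCap ERG and 10.30 and 10.32 in LNCap Vector (log2 fold change 0.34, adjusted p = 0.38), though its 6 dimmer probe sets had -0.11 to 0.19. DPP3, which competes with NRF2 for KEAP1, had 0.19 (adjusted p = 0.54) and 0.04 at its other probe set.

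**Figure D4:**
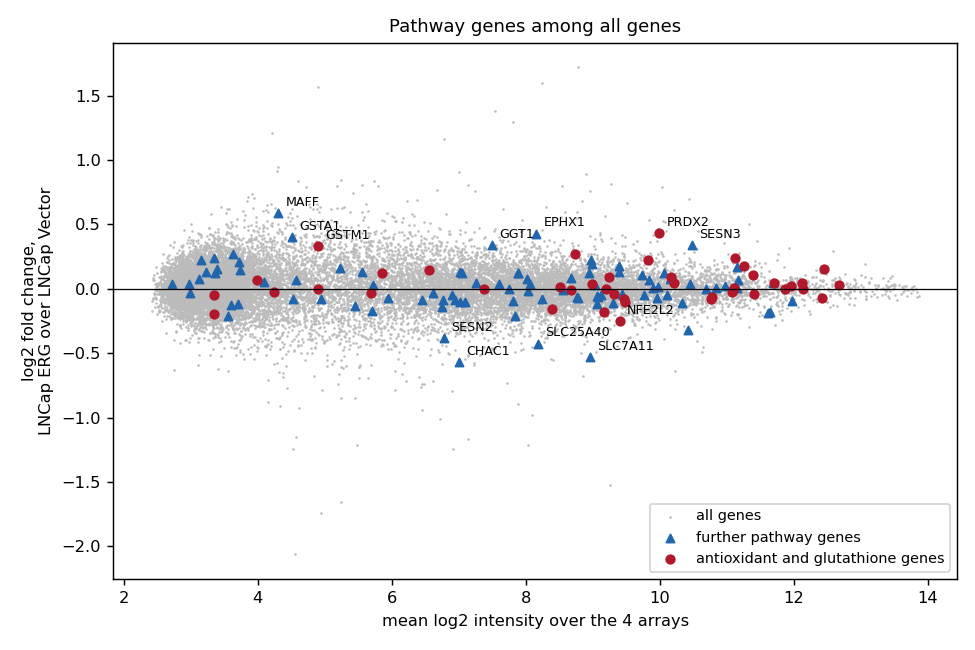
Mean log2 intensity over the 4 arrays (x axis) and log2 fold change, LNCap ERG over LNCap Vector (y axis), of all 19583 genes (grey), the 43 antioxidant and glutathione genes (red circles) and the 93 further pathway genes (blue triangles). The red circles stay between -0.25 and 0.43, inside the grey cloud, and SLC7A11 is among the lower triangles at -0.53.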

How the data were processed

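RNA of LNCaP cells was hybridised to 4 Affymetrix arrays. Per the methods, the authors used dChip and RMAexpress. What they deposited is 1 intensity per probe set and array, taken here as linear because their medians are 14.0 to 14.4 and their maxima 14962 to 15344. Their versions and settings are not stated.

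Intensities were taken to log2. Probe sets with a missing value (2), with several genes (838) or with no gene (11661) were left out. A gene's brightest probe set stood for it. Groups were compared with limma 3.58.1 in R 4.3.3 (lmFit and eBayes, 2 residual and 3.23 prior degrees of freedom), with Benjamini-Hochberg adjustment over 19583 genes and a threshold of 0.05. The fit was tested on simulated arrays. The background level leaves KRT10 and MBP out of 43 measured genes of other organs, a choice made after seeing the data; with them it was 7.73. Motifs were searched in Python 3.11.15, and plots drawn with matplotlib 3.10.9.

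The genes and lists were chosen with earlier results of these data known. Array values are given for 11 core genes and for those at an unadjusted p under 0.05 by limma. All probe sets of the 43 genes are given where they differ in sign. Of the further list, the 8 genes with the smallest p above 7.73 in a group are named, SLC7A11 among them. The array values or group means of FTL, GPX4, GPX8, GSTM3 and GSTO1 fall outside this rule and were chosen after they were seen. The alternatives were another variance moderation, all probe sets, no dim genes, probe set means, plain probe sets, quantile normalization again, housekeeping centring (19 genes), the replicate block, the methods' t-test and each array left out. Arrays have no read depth; their number limits the precision.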

Additional observations from a re-analysis of the deposited data

How the results depend on the processing

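No alternative called a gene of the 43 lower, and 1 called any higher: with trended and robust moderation 1 passed, PRDX2. None of the 93 further genes passed under any of them. Over all genes the counts moved more: 48 were higher and 41 lower under the trended, robust variance, 31 and 23 without the dimmer genes, 6 and 8 with probe set means, 3 and 3 with housekeeping centring, 2 higher with quantile normalization again, and 2 lower with plain probe sets. They were 0 and 0 with all probe sets tested together, with the methods' t-test, and without any 1 array (0 to 0). The replicate numbers of the 2 groups mark no shared batch in the labels, and the deviations of same-numbered arrays correlated at 0.0765 over all genes and 0.14 over the 8407 genes above background in both groups; with the replicate number as a block, 0 genes were called higher and 0 lower, and 0 of the 43. The median log2 fold change of the 43 genes was 0.024 with probe set means and -0.008 to 0.028 with single arrays left out.

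Of the 43 genes, 22 kept their sign under every alternative run, NFE2L2, GCLM, SRXN1, NQO1, PRDX2, GSTM1, GSTA4, GSTK1, MGST3 and FTL among them. The groups of these named genes do not overlap, so leaving out an array could not change their sign. Nor could the other variance moderation, all probe sets, no dim genes, the replicate block or the methods' t-test, which keep the group means. Kept signs under those alternatives were thus fixed in advance. The other 21 of the 43 genes changed sign under some alternative. With probe set means the log2 fold changes were 0.024 for GSS, 0.028 for GPX3, 0.045 for TXN, -0.003 for TXN2, -0.008 for TXNRD2, 0.038 for CAT and -0.007 for TKT. With plain probe sets they were 0.10 for GPX3, 0.093 for TXN, -0.026 for TXNRD2 and -0.001 for TKT. With quantile normalization again they were 0.009 for GCLC, 0.007 for GSR, 0.021 for GSTM2, 0.002 for TXN and -0.008 for TKT, and with housekeeping centring 0.001 for GCLC, 0.001 for GSTM2 and 0 for PRDX4. With single arrays left out they ran from -0.036 to 0.036 for GCLC, -0.108 to 0.019 for GPX3, -0.066 to 0.053 for GSR, -0.157 to 0.002 for GSS, -0.233 to 0.232 for GSTM2, -0.158 to 0.298 for GSTM4, -0.155 to 0.11 for GSTP1, -0.008 to 0.303 for GSTT2, -0.009 to 0.092 for KEAP1, -0.004 to 0.088 for MGST2 and -0.034 to 0.036 for PGD. They ran from -0.083 to 0.007 for PRDX3, -0.038 to 0.036 for PRDX4, -0.037 to 0.13 for PRDX6, -0.116 to 0.057 for SOD2, -0.032 to 0.038 for TKT, -0.08 to 0.075 for TXN, -0.026 to 0.011 for TXNRD1 and -0.039 to 0.061 for TXNRD2. The cause of these changes was not tested. Leaving out an array left 1 residual degree of freedom, so the single array then standing for its group was taken to have the other group's spread.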

Other observations

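A few genes of the further list fell outside the rule for names and were chosen after their values were seen. CHAC1, which breaks down glutathione, read 6.84 and 6.60 in LNCap ERG and 7.22 and 7.36 in LNCap Vector (log2 fold change -0.57, adjusted p = 0.32 from limma). SESN2, a stress-induced sestrin, averaged 6.59 ± 0.03 in LNCap ERG and 6.97 ± 0.04 in LNCap Vector (SD, n = 2 each) (log2 fold change -0.38, adjusted p = 0.32), but its second probe set had -0.009 with overlapping groups. CHAC1 and SESN2 are known, like SLC7A11, as targets of the amino acid stress factor ATF4 as well. Any part of ATF4 in these differences was not tested. GGT1, the surface enzyme that starts glutathione breakdown outside the cell, read 7.68 and 7.66 in LNCap ERG and 7.32 and 7.33 in LNCap Vector (log2 fold change 0.34, adjusted p = 0.34). Its other 4 probe sets had 0.16 to 0.36, overlapping at 2 of them. All GGT1 probe sets but the dimmest are of a kind that may match related genes. The dimmest lay under the background level (4.95 in LNCap ERG, 4.76 in LNCap Vector), with overlapping groups. MAFF, a small MAF partner of NRF2, read 4.66 and 4.55 in LNCap ERG and 4.16 and 3.88 in LNCap Vector (log2 fold change 0.59, adjusted p = 0.32), under the background level in both groups. None passed the adjusted threshold, and at the brightest probe set of each of the 4 the groups did not overlap.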
